A study of Mus musculus with 12 samples.

Results

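Cells at day 9 of a differentiation of mouse embryonic stem cells toward cardiomyocytes (day 9) were compared with mouse embryonic stem cells (mESC). The comparison holds every array whose label names either state, 4 of day 9 and 4 of mESC, which is 8 of the 12 arrays of the study, and the remaining 4 arrays are of day 14. RNA from each sample, labelled with Cy3, was hybridised to Agilent arrays with 1 dye, where a gene's level is the brightness of its probes. The stated design sets stem cells against both days of differentiation, so the question is which genes differ once differentiation is under way. Cells were plated on crosslinked elastin-like polypeptide (ELP), a protein polymer modelled on elastin. They grew first in a medium without LIF, the cytokine that keeps mouse stem cells undifferentiated, and then in GMEM with knockout serum replacement, non-essential amino acids and beta-mercaptoethanol. This culture text and the cell type, embryonic stem cells, are attached to all 12 samples, the mESC samples included, so neither the time at which mESC were harvested nor their own medium is given in the sources used here. The stem cell line, its sex and its mouse strain are not given either, and nothing says whether the 4 samples of a group were separate cultures. P-values thus reflect the spread between these samples alone, and that spread may be technical.

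Mouse embryonic stem cells divide rapidly, rely heavily on glycolysis and on the serine and folate pathways, and hold a network of transcription factors around Pou5f1, Nanog and Sox2 that keeps lineage genes silent. When LIF is withdrawn the network is lost, and cells pass through mesoderm or endoderm to lineages such as heart muscle, vessel, fibroblast or yolk sac. Families of genes with one name, such as collagens or tRNA synthetases, often hold members for different tissues. A family was therefore described by how many of its members moved each way and by which members they were.

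Values are log2 processed signals relative to the 75th percentile of the same array, so that 0 is the brightness of a fairly bright probe, and levels of different probes are not compared. The 75th percentile lay at an intensity of 345.9 to 386.2 on the mESC arrays and 395.1 to 438.4 on the day 9 arrays, and the share of probes well above background was 59.5% to 65.54%. Arrays of the same group correlated across genes at 0.9893 or more, and mESC with day 9 arrays at 0.83 to 0.8371, where genes are not independent replicates. The mESC arrays lay on 1 slide and the day 9 arrays on another, each scanned in a session of its own, so slide, scan and group cannot be told apart. Of 20875 genes tested, 15557 had a symbol. In the limma fit 8565 genes (41.0% of those tested) were called, which requires both a 2-fold change and an adjusted p under 0.05. Of these, 4179 were higher at day 9 (20.0%) and 4386 lower (21.0%), and 2330 had a fitted change of 8-fold or more. The probe that stood for a called gene was below background on all arrays of 1 group for 2150 genes and on all arrays of both for 43, and the latter carry no size. The median over all genes was −0.16 on the log2 scale. "Rose" and "fell" refer below to genes that passed both thresholds, and changes are log2 fold changes of day 9 minus mESC ± SE with n = 4 arrays in each group. A gene whose probe was not above background on any array of 1 group has a bound in place of a size, "at least N-fold". The bound is measured, on each array of that group, from the lowest signal that counted as well above background, or from the probe's own signal where this was higher. Another background correction, scaling or test is named beside a count where it moved the count by more than 1.5 times and by at least 3 genes, and treat stands for limma's test of a change beyond the 2-fold threshold itself. For 78.6% of all genes tested the 4 day 9 values did not overlap the 4 mESC values, so that a lack of overlap is common here. Precision is limited by there being 4 arrays a group.

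**Figure D1:**
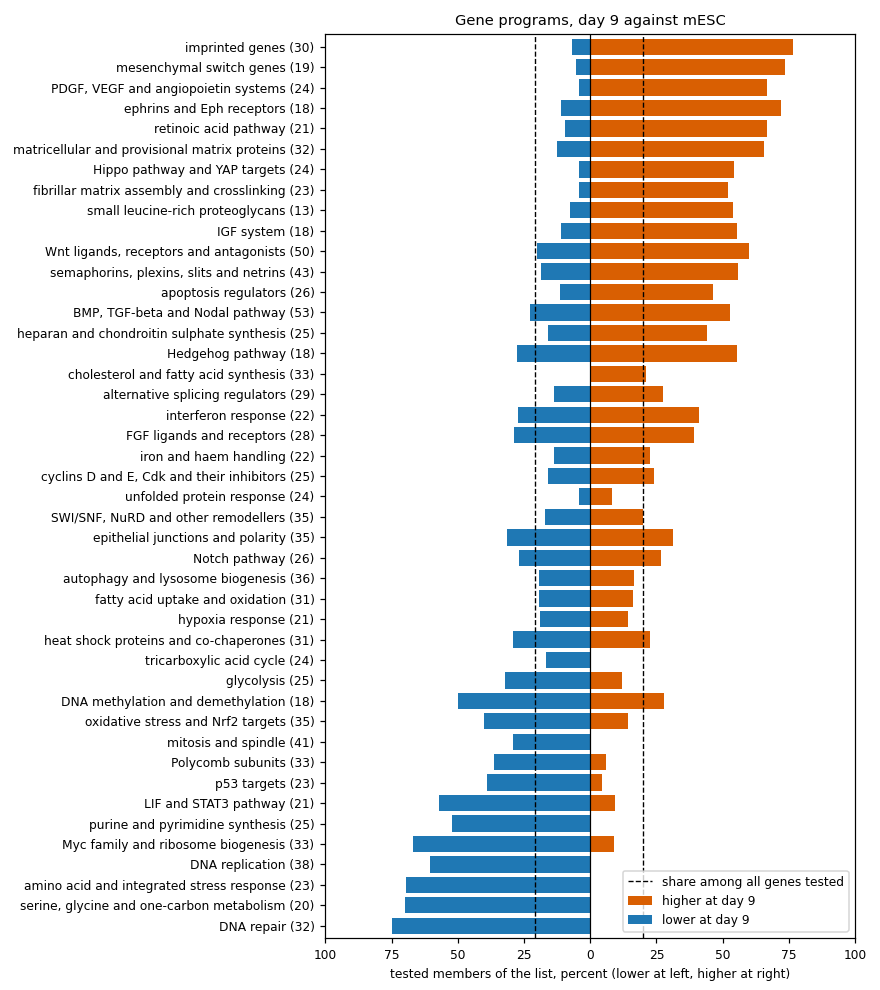
Share of the tested members of each gene list that were higher (right, orange) or lower (left, blue) at day 9 than in mESC, in percent, with the number of tested members in parentheses. Dashed lines mark the shares among all genes tested, 20.0% and 21.0%. DNA repair, serine and folate metabolism and the integrated stress response reach furthest left, and imprinted genes, the mesenchymal switch and ephrins furthest right.

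The labels were first set against defining genes. The level of Nanog, a core factor of pluripotency, was 4.39, 4.37, 4.41 and 4.41 on the mESC arrays and −2.52, −3.04, −2.72 and −3.1 on the day 9 arrays. Pou5f1, its partner in the network, read 5.21, 4.93, 5.18 and 5.24 on the mESC arrays and −0.18, −1.16, −0.28 and −1.16 on the day 9 arrays. Both were far lower on every day 9 array, yet above background there, and the day 9 values of Pou5f1 spread over about 1 log2 unit. In the fit Nanog changed by −7.24 ± 0.11 and Pou5f1 by −5.83 ± 0.21. Of 30 tested genes of the pluripotency list 27 fell and 1 rose, with a median of −4.33. The gene that rose was Lin28b (1.44 ± 0.10), a repressor of let-7 microRNA processing, while its relative Lin28a did not pass the thresholds (0.36 ± 0.21). Summed over the list, the signal was 1014 to 1084 times an array's 75th percentile in mESC and 88.3 to 106 times at day 9. The list of germ cell genes and genes of the early cleavage embryo fell as broadly, with 26 of 30 lower and 2 higher (median −4.56). It holds Dazl, which germ cells need to regulate translation and which was at least 207-fold lower (its other probe read −6.24), and Khdc3 (−8.35 ± 0.23), an oocyte protein. The homeobox genes Rhox6 (2.21 ± 0.11) and Rhox9 (2.74 ± 0.18) of the X chromosome were the ones that rose.

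Muscle genes came next, since the day 9 samples are labelled as a differentiation toward heart muscle. Sarcomeres are built of actin and myosin filaments held by Z-disc proteins such as Csrp3, and 34 of 49 tested sarcomere genes rose while 9 fell (median 3.50). Myh6, the alpha myosin heavy chain of heart, read −2.68, −2.77, −2.76 and −2.60 on the mESC arrays and 3.73, 5.36, 5.12 and 4.07 on the day 9 arrays. Actc1, cardiac alpha-actin, read −3.11, −3.17, −3.08 and −3.16 on the mESC arrays and 4.85, 5.79, 5.64 and 5.16 on the day 9 arrays. All day 9 values of both genes exceeded all mESC values, and for both genes day 9 replicates 2 and 3 were higher than replicates 1 and 4. The fitted changes were 7.28 ± 0.31 and 8.49 ± 0.18. Myl3, a ventricular light chain, rose by 8.99 ± 0.25, although another of its probes read 1.78. Csrp3 was at least 278-fold and Acta1, the skeletal alpha-actin that the early heart also makes, at least 122-fold higher. Several genes that fell are known from skeletal muscle, but skeletal forms also rose, among them Acta1 and a fast skeletal myosin heavy chain. Mybpc2, fast skeletal myosin-binding protein C, was at least 47-fold lower, Myh3, embryonic skeletal myosin, changed by −5.41 ± 0.23, and Myom2, an M-band protein, changed by −4.04 ± 0.17. Myot, a Z-disc protein, and Neb, nebulin of skeletal thin filaments, were at least 11.8-fold and 5.49-fold lower. The values of Myh3 on the single arrays were −0.64, −0.56, −0.57 and −0.51 on the mESC arrays and −6.41, −5.74, −5.30 and −6.44 on the day 9 arrays, with 2 of the 4 day 9 arrays above background. Skeletal muscle regulators followed, with 8 of 17 lower and 4 higher, and with normexp background correction 3 and 3. Chrna1, the muscle acetylcholine receptor subunit, was at least 16.6-fold and Rapsn, its anchoring protein, at least 15.9-fold lower, and Cav3, a caveolin of muscle membranes, rose by 7.39 ± 0.52. Normexp correction gave 30 higher and 5 lower of the 49 sarcomere genes. Treat gave 3 higher and 5 lower of the 17 skeletal muscle regulators.

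The promoters of 4 genes that rose are shown because each holds a CArG box, the site that serum response factor is known to bind at muscle genes. They are the 4 largest changes among the called sarcomere and smooth muscle genes with such a box in the 250 bases before the start site, as RefSeq gives it on GRCm38.p6, written 5′ to 3′ on the strand of the gene with the box in capitals.
Myl3, chr9:110763428-110763677, plus strand: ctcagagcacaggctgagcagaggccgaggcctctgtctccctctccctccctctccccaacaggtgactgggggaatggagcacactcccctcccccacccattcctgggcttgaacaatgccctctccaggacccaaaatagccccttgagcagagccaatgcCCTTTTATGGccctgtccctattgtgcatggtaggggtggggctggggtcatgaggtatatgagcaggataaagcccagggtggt
Myl9, chr2:156775214-156775463, plus strand: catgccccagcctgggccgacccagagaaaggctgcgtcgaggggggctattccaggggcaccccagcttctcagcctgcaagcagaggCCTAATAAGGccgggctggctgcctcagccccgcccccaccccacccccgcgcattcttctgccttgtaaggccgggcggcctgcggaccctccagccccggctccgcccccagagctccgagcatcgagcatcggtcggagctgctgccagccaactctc
Actc1, chr2:114052876-114053125, minus strand: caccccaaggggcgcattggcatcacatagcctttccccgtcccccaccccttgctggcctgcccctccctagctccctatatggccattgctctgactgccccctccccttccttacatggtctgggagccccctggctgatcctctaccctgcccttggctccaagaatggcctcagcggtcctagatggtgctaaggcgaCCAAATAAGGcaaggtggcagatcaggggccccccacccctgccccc
Acta1, chr8:123894776-123895025, minus strand: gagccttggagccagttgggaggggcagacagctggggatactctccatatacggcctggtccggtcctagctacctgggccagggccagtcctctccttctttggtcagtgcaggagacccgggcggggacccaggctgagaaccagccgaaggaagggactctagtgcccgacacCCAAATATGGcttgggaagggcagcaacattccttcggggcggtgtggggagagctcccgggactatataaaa
A CArG box was taken as 2 C, 6 bases that are A or T, and 2 G. It was present in 8 of 39 sarcomere genes and 2 of 15 smooth muscle genes with a promoter in the table, beside 1.6% of all genes in that table and 1.6% of the genes tested. The sites begin 85 (Myl3), 161 (Myl9), 47 (Actc1) and 73 bases (Acta1) before the start. A match is a description of the letters and does not show binding.

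Of 33 heart transcription factors 23 rose and 3 fell (median 3.0). Nkx2-5, a homeobox factor of heart progenitors, read −2.13, −2.41, −2.23 and −2.31 on the mESC arrays and 0.88, 2.50, 2.16 and 1.56 on the day 9 arrays. Its day 9 values did not overlap with mESC and again were highest on replicates 2 and 3, and the change was 4.04 ± 0.30. Hand2 and Mef2c, factors of the early heart tube, were at least 110.2-fold and 71-fold higher, and Myocd, the coactivator of serum response factor, at least 61.4-fold. Hand1 rose by 7.40 ± 0.19. Tbx3 fell by 3.55 on the log2 scale (SE 0.13), Irx2 changed by −1.90 ± 0.11, and Mesp2 was at least 7.28-fold lower. Genes of calcium cycling and excitation rose in 28 of 36 cases, among them Jph2, which ties calcium channels to the sarcoplasmic reticulum (at least 123-fold), and Corin, the protease that matures atrial natriuretic peptide (at least 29.8-fold). Slc8a1, the sodium-calcium exchanger, was at least 51.2-fold higher with its brightest probe, which was below background on all mESC arrays, and its other probes read 0.57 to 6.39. Kcnip2, a subunit of the transient outward channel of adult heart, changed by −2.44 ± 0.16. Normexp correction gave 16 higher and 0 lower of the 36 calcium and excitation genes.

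The 4 day 9 arrays differed among themselves in the level of muscle genes. Summed over the sarcomere list, the signal was 462, 834, 789.9 and 618 times the 75th percentile on replicates 1 to 4, against 80.8 to 83.7 in mESC. The fibroblast list gave 448, 258, 327 and 428 on the same arrays, against 5.97 to 6.83 in mESC. Replicates 1 and 4 thus had the lower sarcomere sums and the higher fibroblast sums. Erythroid genes summed to 9.61, 3.45, 5.57 and 9.37, with the same arrays high as for fibroblast genes, and the list of visceral endoderm and liver to 116, 173, 153 and 130.4, high on the arrays that were high for the sarcomere. In RNA of a whole culture a smaller share of a cell type and less RNA of that gene per cell cannot be told apart.

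**Figure D2:**
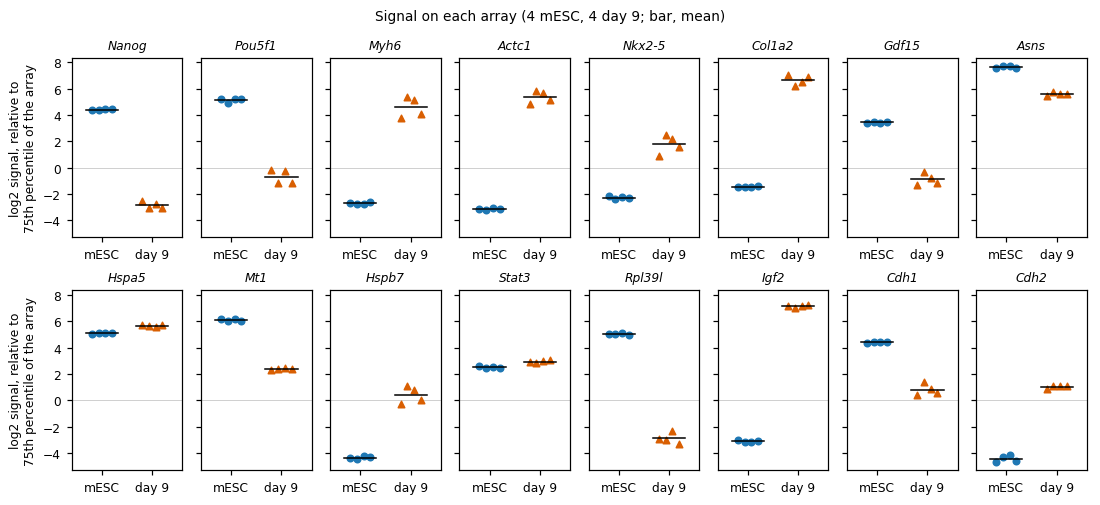
Log2 signal relative to the 75th percentile on each of the 4 mESC arrays (circles) and 4 day 9 arrays (triangles) for 16 genes described in the text, with the mean of each group as a bar. In every panel except Hspa5 and Stat3 the fitted change passed the thresholds, and the day 9 points of Myh6 and Actc1 spread more widely than their mESC points.

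Cellular stress programs did not move as a block. The integrated stress response is the program in which phosphorylation of the initiation factor eIF2 raises Atf4, which then turns on amino acid synthesis, import and tRNA charging. Of 23 tested genes of this list 16 fell and none rose, with a median of −1.51. Normexp background correction left 14 that fell. Gdf15, a secreted stress cytokine, read 3.38, 3.47, 3.41 and 3.46 on the mESC arrays and −1.32, −0.36, −0.78 and −1.14 on the day 9 arrays. Asns, asparagine synthetase and a classic Atf4 target, read 7.56, 7.72, 7.68 and 7.52 on the mESC arrays and 5.45, 5.76, 5.55 and 5.61 on the day 9 arrays. Atf4 itself read 3.67, 3.85, 3.67 and 3.92 on the mESC arrays and 2.49, 2.73, 2.59 and 2.45 on the day 9 arrays. In all 3 genes each day 9 value lay below each mESC value, and the changes were −4.32 ± 0.19, −2.02 ± 0.11 and −1.21 ± 0.10. Psat1 (−2.29 ± 0.08), an enzyme of serine synthesis, Nupr1 (−2.63 ± 0.10), a stress-induced chromatin protein, and Stc2 (−2.19 ± 0.08), a secreted glycoprotein, also fell. Slc7a11, the cystine importer, did not pass the thresholds at 0.98 ± 0.22, and became the only member that rose when day 9 replicate 3 or 4 or mESC replicate 2 or 4 was left out (1.02 to 1.11).

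The unfolded protein response, the reaction to misfolded protein in the endoplasmic reticulum, behaved differently. Of 24 genes tested, 2 rose and 1 fell, and the median was −0.07. Ddit3, the factor known as CHOP, changed by −1.24 ± 0.12, Derl3 by 1.15 ± 0.24 and Dnajb9 by 1.14 ± 0.08, whose other probes read 0.73 to 1.21. Without day 9 replicate 1, Derl3 changed by 0.95 and 1 gene of the list rose. Hspa5, the main chaperone of the endoplasmic reticulum, read 5.03, 5.14, 5.11 and 5.08 on the mESC arrays and 5.74, 5.66, 5.59 and 5.70 on the day 9 arrays and did not pass the fold threshold at 0.58 ± 0.05. Among all genes tested 41.0% were called, against 3 of 24 here. Promoters of this list held CCAAT in 19 and CCACG in 16 of 21 matched genes on either strand, beside 37.5% and 31.0% of all genes in the promoter table (39.8% and 43.3% of the genes tested), and both motifs are parts of the known endoplasmic reticulum stress element.

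Heat shock genes moved in both directions. Of 31 tested, 7 rose (22.6%) and 9 fell (29.0%), shares near those of all genes, and with quantile normalization 7 rose and 5 fell. Among the small heat shock proteins, Hspb7 rose by 4.76 ± 0.26, Hspb3 by 4.44 ± 0.28 and Cryab, alpha-B crystallin, by 3.29 ± 0.05. Hspb7 read −4.40, −4.47, −4.23 and −4.33 on the mESC arrays and −0.28, 1.10, 0.79 and 0.00 on the day 9 arrays, with no overlap and with replicates 2 and 3 highest, the order of the sarcomere sums. Hspb1 (−2.10 ± 0.05) and Hspb8 (−1.47 ± 0.06) of the same family fell. Among the ATP-driven chaperones Hspa9 of mitochondria fell by 1.71 on the log2 scale (SE 0.07), and Hspa4 changed by −1.61 ± 0.05, although its other probes read −1.71 to −0.27. Bag2 (2.48 ± 0.08) and Dnajb4 (2.46 ± 0.07), both co-chaperones, rose. The chaperonin and prefoldin subunits, which fold actin and tubulin, had 2 of 15 lower and none higher (median −0.86): Pfdn1 (−1.22 ± 0.05) and Vbp1 (−1.07 ± 0.07). Of 47 proteasome genes 4 fell and none rose, although 1 rose when day 9 replicate 1 or 3 or mESC replicate 1 or 4 was left out. Psma8, the subunit of the testis proteasome, read 3.08, 3.09, 3.18 and 3.11 on the mESC arrays and −4.71, −4.38, −3.84 and −4.71 on the day 9 arrays, a change of −7.52 ± 0.16 with no overlap, while the median of the family was −0.53. Median scaling gave 0 higher and 7 lower of the 15 chaperonin and prefoldin genes. Treat gave 6 higher and 4 lower of the 31 heat shock genes.

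Genes of oxidative stress and of the factor Nrf2 were lower in 14 and higher in 5 of 35 cases (median −0.75). The metallothioneins, which bind zinc and copper, fell most. Mt1 read 6.17, 5.98, 6.18 and 6.01 on the mESC arrays and 2.26, 2.41, 2.47 and 2.35 on the day 9 arrays. Mt2 read 7.48, 7.52, 7.56 and 7.37 on the mESC arrays and 3.46, 3.50, 3.70 and 3.23 on the day 9 arrays. Their values were tight within each group and about 4 log2 units apart, at −3.71 ± 0.06 and −4.01 ± 0.09. Gpx2, an intestinal glutathione peroxidase, changed by −2.72 ± 0.09 and Gsta4, which removes lipid aldehydes, by −2.70 ± 0.09. All 4 tested genes of the Gsta class of glutathione transferases fell: Gsta1 changed by −4.83 ± 0.18 and Gsta3 by −3.89 ± 0.19, and Gsta2 was at least 17.7-fold lower. Among the members of the list that rose, Selenop, a selenium carrier of plasma, rose by 5.12 ± 0.06, Gpx8 by 3.92 ± 0.09 and Gpx3 by 3.22 ± 0.17. In the family of glutathione transferases as a whole 8 of 23 fell and 3 rose, with Mgst1, a membrane-bound member, at 4.47 ± 0.08.

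Targets of p53 fell in 9 of 23 cases and rose in 1. Tigar, which lowers glycolytic flux, changed by −4.48 ± 0.09, Plk3, a stress kinase, by −2.37 ± 0.08 and Pmaip1, the death inducer Noxa, by −1.94 ± 0.08. The death receptor Fas rose by 4.52 ± 0.24. Of 32 DNA repair genes 24 fell and none rose (median −1.33), among them Fanci (−2.72 ± 0.06) and Fanca (−2.35 ± 0.04) of the Fanconi pathway, Msh6 (−2.66 ± 0.05) of mismatch repair, and the checkpoint kinase Chek2 (−2.20 ± 0.07). Apoptosis regulators went the opposite way, with 12 of 26 higher and 3 lower. Cflar, the inhibitor of caspase 8, rose by 3.24 ± 0.05 and Bmf by 2.38 ± 0.05, with other probes of Bmf from 0.62 to 1.20, Casp12 was at least 4.22-fold higher, and Bid, which carries death receptor signals to mitochondria, changed by −2.61 ± 0.07. The hypoxia list was near the background, with 3 higher and 4 lower of 21, and its adenylate kinase Ak4 changed by −3.91 ± 0.17. Autophagy and lysosome genes had 6 higher (16.7%) and 7 lower (19.4%) of 36, also near the shares of all genes. Among them Lipa, lysosomal acid lipase, changed by 2.88 ± 0.09 and Glb1, beta-galactosidase, by −2.23 ± 0.05.

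The interferon list parted into genes of opposite direction, 9 higher and 6 lower of 22. Ifit3 was at least 9.6-fold and Ifih1, a sensor of double-stranded RNA, at least 4.98-fold higher, and Isg15, a ubiquitin-like modifier, rose by 2.54 ± 0.22. The 2′-5′ oligoadenylate synthetases Oas1a (−6.96 ± 0.31), Oasl1 (at least 18.3-fold) and Oas2 (at least 8.76-fold) were lower. Oas1a read 2.52, 2.56, 2.59 and 1.49 on the mESC arrays and −4.28, −4.53, −4.27 and −5.60 on the day 9 arrays, with the groups far apart. With normexp background correction 2 genes of the list were higher and 6 lower.

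Growth and division were covered by lists of replication, mitosis and the cyclins. Of 38 DNA replication genes 23 fell and none rose (median −1.12), with Orc1 (−2.50 ± 0.05) of the origin recognition complex and Mcm10 (−2.50 ± 0.05) lowest. Of 41 genes of mitosis and the spindle 12 fell and none rose (median −0.78), with Ccnb1, the mitotic cyclin, at −1.77 ± 0.04. Their promoters held CCAAT in 25 of 34 matched genes and TTTGAA in 11 of 34, beside 37.5% and 18.3% of all genes in the promoter table (39.8% and 13.5% of the genes tested). Cyclins and their inhibitors changed strongly in single members. Ccnd2, cyclin D2, read −2.15, −2.17, −2.22 and −2.23 on the mESC arrays and 4.02, 4.29, 4.11 and 4.18 on the day 9 arrays. Cdkn1c, the imprinted Cdk inhibitor p57, read −1.56, −1.84, −1.76 and −2.02 on the mESC arrays and 4.51, 4.16, 4.43 and 4.48 on the day 9 arrays. Both were low on every mESC array and high on every day 9 array, at 6.34 ± 0.08 and 6.19 ± 0.11. Cdk6 changed by −3.78 ± 0.13, although another probe read −0.58, and Cdkn1a, the inhibitor p21, by −1.23 ± 0.05. Quantile normalization gave 0 higher and 14 lower of the 38 DNA replication genes and 0 higher and 7 lower of the 41 mitosis and spindle genes. Treat gave 0 higher and 7 lower of the 41 mitosis and spindle genes.

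Families that work in translation differed. Aminoacyl-tRNA synthetases, which load amino acids onto tRNA, fell in 20 of 33 cases and none rose (median −1.18). The cytosolic enzymes had 11 of 16 lower and the mitochondrial enzymes 9 of 17. Nars (−1.93 ± 0.05), Cars (−1.87 ± 0.05) and Aars (−1.72 ± 0.05) changed most. After normexp background correction 19 of the 33 fell. Cytosolic ribosomal proteins, by contrast, had 4 of 77 lower and none higher, with a median of −0.53. Of these, Rpl39l and Rpl3l are paralogues of general subunits, known from male germ cells and from striated muscle. Rpl39l read 5.02, 5.06, 5.11 and 4.96 on the mESC arrays and −2.92, −2.98, −2.31 and −3.34 on the day 9 arrays, a change of −7.93 ± 0.20, and Rpl3l changed by −3.95 ± 0.17. The list of the Myc family and of ribosome biogenesis fell in 22 of 33 cases, with Dkc1, the pseudouridine synthase dyskerin, at −2.92 ± 0.06 and Rrp9 at −2.14 ± 0.06. Of its members Myc, a factor known to drive ribosome genes, rose by 3.97 ± 0.09, as did Mxd4 (2.60 ± 0.11), which competes with it. Nucleoporins and importins (15 of 37 lower, none higher), DEAD-box helicases (19 lower, 1 higher of 52), RNA polymerase subunits (8 of 27 lower, none higher) and mitochondrial ribosomal proteins (14 of 75 lower, none higher) lay between. For the mitochondrial ribosomal proteins the share that fell, 18.7%, was under the 21.0% of all genes. The median of the splicing factor family was −0.40, with 3 of 64 lower. Regulators of alternative splicing moved in both directions, with Rbm24, a splicing factor of heart and skeletal muscle, at 3.42 ± 0.29, Rbfox1 at least 16.5-fold higher, and the epithelial regulator Esrp2 at −2.14 ± 0.14. Normexp correction gave 0 higher and 5 lower of the 27 RNA polymerase subunits. Quantile normalization gave 3 higher and 14 lower of 33 in the Myc and ribosome list, 0 higher and 4 lower of the 27 RNA polymerase subunits and 1 higher and 9 lower of the 75 mitochondrial ribosomal proteins. Median scaling gave 0 higher and 7 lower of the 77 cytosolic ribosomal proteins. Treat gave 0 higher and 5 lower of the 27 RNA polymerase subunits.

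**Figure D3:**
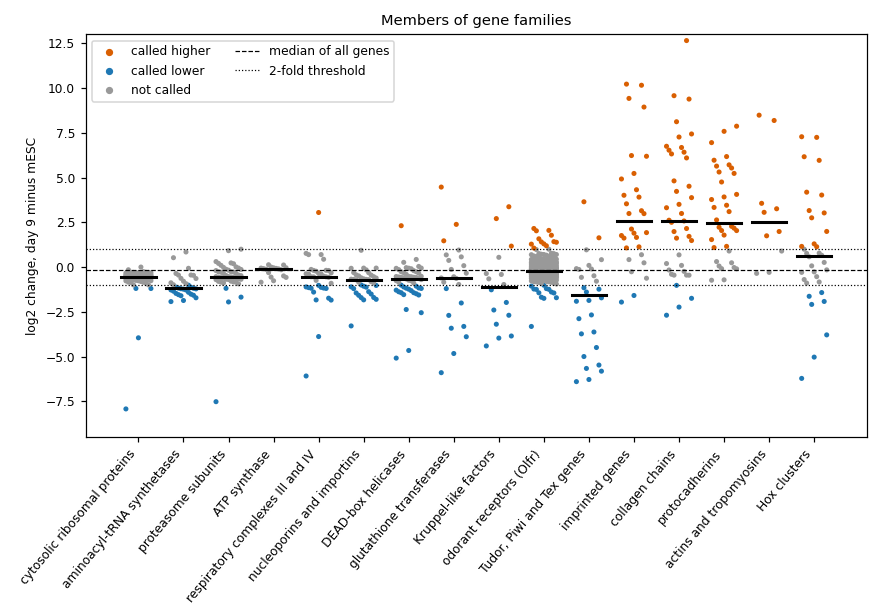
Log2 change of every tested member (points) of 16 gene families, with the family median as a bar. The dashed line marks the median of all genes, −0.16, and the dotted lines the 2-fold threshold. Fitted sizes of genes below background in a group are not bounds. Ribosomal proteins, apart from Rpl39l and Rpl3l, and ATP synthase form narrow columns, while collagens, protocadherins and imprinted genes extend far upward.

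Metabolic genes were lower in several biosynthetic pathways. The list of serine, glycine and folate metabolism fell in 14 of 20 cases and none rose (median −1.76). Tdh, threonine dehydrogenase, on which mouse stem cells are known to depend, read 7.05, 7.19, 7.17 and 7.18 on the mESC arrays and 2.83, 2.01, 2.54 and 2.51 on the day 9 arrays, a change of −4.68 ± 0.14 with no overlap. Bhmt (−5.32 ± 0.22) and Cbs (−4.77 ± 0.15) of homocysteine metabolism fell by as much. Purine and pyrimidine synthesis had 13 of 25 lower and none higher, with Prps1 (−2.50 ± 0.05) and Gart (−2.13 ± 0.08), early enzymes of purine synthesis. Glycolysis had 8 lower and 3 higher of 25. The glucose carrier Slc2a3 (−2.76 ± 0.15) and hexokinase Hk2 (−1.64 ± 0.12) fell, and the muscle isoenzymes Pgam2 (4.35 ± 0.25) and Eno3 (2.83 ± 0.16) rose. The tricarboxylic acid cycle had 4 of 24 lower (16.7%, under the 21.0% of all genes) and none higher. No ATP synthase gene of 17 was called (median −0.10), with Atp5g2 and Atp5o bright examples at −0.31 ± 0.04 and −0.12 ± 0.05. Complex I had 1 of 44 lower (median −0.37), and complexes III and IV 13 lower and 1 higher of 35. That family also counts cytochrome c, which is not a subunit of either complex. Within the family the testis cytochrome c gene Cyct (−6.09 ± 0.17) and the testis forms Cox7b2 (−1.84 ± 0.18) and Cox8c (at least 3.15-fold lower) fell. Cox8b, the form of heart and skeletal muscle, rose by 3.05 ± 0.51. Cycs, the somatic cytochrome c, changed by −0.39 ± 0.09 and was not called. Quantile normalization gave 1 higher and 6 lower of the 35 genes of complexes III and IV. Median scaling gave 3 higher and 13 lower of the 25 glycolysis genes. Treat gave 3 higher and 5 lower of the 25 glycolysis genes.

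Cholesterol and fatty acid synthesis was the metabolic list with no fall. Of its 33 genes 7 rose (21.2%), a share near the 20.0% of all genes, and the median was 0.59. Sc5d, a late enzyme of cholesterol synthesis, rose by 1.66 ± 0.05 and Hmgcs1, an early enzyme, by 1.26 ± 0.06. After normexp background correction 6 rose. Fatty acid uptake and oxidation had 5 higher (16.1%) and 6 lower (19.4%) of 31, shares near those of all genes. With quantile normalization 7 rose and 5 fell. Slc27a2, a fatty acid carrier, fell by 4.65 on the log2 scale (SE 0.27), Fabp3, the heart fatty acid binding protein, by 2.89 (SE 0.13), and Cpt1a, the liver form of the entry enzyme to mitochondria, by 2.72 (SE 0.10), while Cpt1b, its muscle form, rose by 1.43 ± 0.19. Among iron genes Slc40a1, the exporter ferroportin, rose by 5.25 ± 0.22 and Tfr2 changed by −1.32 ± 0.11. Enzymes of heparan and chondroitin sulphate and of hyaluronan rose in 11 of 25 cases and fell in 4, and Has2, the hyaluronan synthase of heart cushions, was at least 499.5-fold higher. Quantile normalization gave 12 higher and 0 lower of the 33 cholesterol and fatty acid genes.

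Regulators of chromatin were divided into those of DNA methylation, Polycomb and nucleosome remodelling. DNA methylation genes had 9 lower and 5 higher of 18. Dnmt3l, the cofactor of new methylation, read 3.1, 2.78, 3.08 and 2.81 on the mESC arrays and −2.98, −2.18, −1.79 and −3.14 on the day 9 arrays, a change of −5.47 ± 0.26. The dioxygenases that oxidise methylcytosine moved apart, with Tet1 at −2.44 ± 0.16, Tet2 at −1.99 ± 0.09 and Tet3 at 2.69 ± 0.05, where other probes of Tet3 read 0.18 to 1.81. Of the methyltransferases Dnmt3b changed by −1.31 ± 0.10 and Dnmt3a by 1.52 ± 0.09. Polycomb subunits fell in 12 of 33 cases and rose in 2, with Cbx7 (−2.95 ± 0.05), Epop (−3.92 ± 0.09) and Mtf2 (−2.48 ± 0.06) lower and Phc2 (2.00 ± 0.05) and Yaf2 (1.87 ± 0.05) higher. Among remodellers Dpf3 (3.30 ± 0.07), a subunit known from heart and muscle, and Smarca1 (3.81 ± 0.11) rose, and Smarca2 rose by 3.96 ± 0.06 with other probes from 0.13 to 2.00. Chd5 changed by −2.46 ± 0.09.

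Imprinted genes, which are expressed from the allele of 1 parent, rose as a group. Of 30 tested 23 rose and 2 fell, with a median of 2.56. Igf2, the fetal growth factor, read −3.02, −3.14, −3.14 and −3.1 on the mESC arrays and 7.15, 6.97, 7.14 and 7.22 on the day 9 arrays. Nnat, a membrane proteolipid, read −4.70, −4.86, −4.75 and −4.89 on the mESC arrays and 4.98, 4.22, 4.49 and 4.80 on the day 9 arrays. Dlk1, a Notch-like protein of immature mesenchyme, read −3.43, −3.26, −3.04 and −3.21 on the mESC arrays and 5.89, 5.39, 5.77 and 5.79 on the day 9 arrays. The groups did not overlap in any of the 3, and the changes were 10.22 ± 0.06, 9.43 ± 0.14 and 8.94 ± 0.11. Dcn, the proteoglycan decorin, was at least 334-fold higher. Airn, the long noncoding RNA of the Igf2r region, was at least 14.5-fold higher, and Igf2r rose by 1.07 ± 0.06. Both paternally and maternally expressed genes rose, for example Peg3 (6.23 ± 0.07) and Cdkn1c (6.19 ± 0.11). The genes that fell were Ascl2 (−1.96 ± 0.14), a trophoblast factor, and Grb10 (−1.59 ± 0.05), an adaptor that restrains insulin signalling, whose other probes read −3.21 to −0.45.

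The Hox genes, which lie in 4 clusters in the order in which they act along the body axis, were counted by cluster. Cluster B had 9 of 10 tested genes higher and 1 lower, and cluster A 4 of 11 higher and 0 lower. Cluster C had 0 higher and 4 lower of 5, and cluster D 0 higher and 2 lower of 8. The genes of cluster B that rose were the 9 tested in paralogue groups 1 to 9. Hoxb3 read −7.63, −7.75, −7.56 and −7.73 on the mESC arrays and −0.30, −0.58, −0.47 and −0.17 on the day 9 arrays, and as this probe was below background on all mESC arrays the change is at least 31.5-fold (its other probe read 3.75). Hoxb2 rose by 5.96 ± 0.15. Hoxb5 and Hoxb6 were at least 37.4-fold and 43.6-fold higher. Hoxb13, at the far end of the same cluster, read −0.51, −0.69, −0.58 and −0.65 on the mESC arrays and −7.79, −7.38, −5.89 and −6.25 on the day 9 arrays, and with no day 9 array above background it was at least 35.3-fold lower. Hoxc12 was at least 9.27-fold lower and Hoxc13 changed by −3.79 ± 0.37. Hoxa11 rose, by 3.03 ± 0.25. With normexp background correction 8 Hox genes rose and 3 fell.

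**Figure D4:**
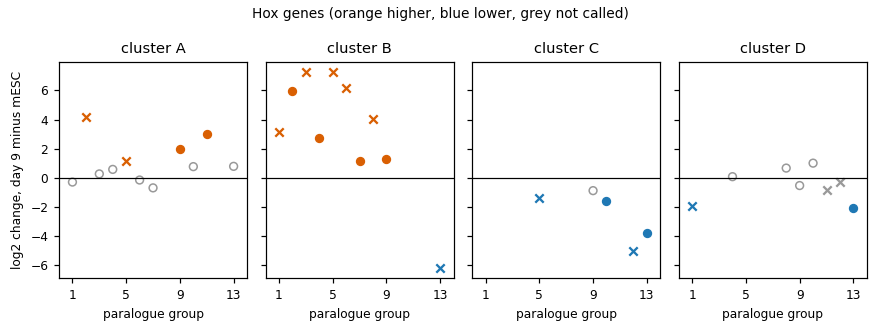
Log2 change of each tested Hox gene against its paralogue group, with 1 panel for each cluster; filled points passed the thresholds and crosses mark genes whose probe was below background on all arrays of at least 1 group, so that the fitted size is not a bound. In cluster B groups 1 to 9 lie above 0 and group 13 below.

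Cofactors of Hox proteins in the Meis and Pbx family rose in 7 of 11 cases, with Meis1 at 5.25 ± 0.09 and Pbx3 at 3.90 ± 0.04, and fell in 2: Pbx4 (−2.08 ± 0.08) and Tgif1 (−2.06 ± 0.05). The homeobox families of Pax, Dlx, Msx, Lhx, Irx and their relatives rose in 21 of 36 cases and fell in 6, and with normexp background correction in 9 and 3. Otx2, a factor of primed stem cells and forebrain, changed by −3.01 ± 0.35. Of 6 Gata factors 4 rose: Gata6 by 6.18 ± 0.06, with other probes from 2.14 to 7.84, Gata3 by 1.95 ± 0.09, and Gata4 and Gata5 by at least 13.5-fold and 8.45-fold. Gata2 changed by −3.38 ± 0.09 and Gata1 by −0.64 ± 0.15, which was not called. Krüppel-like factors fell in 8 of 16 cases and rose in 3. Klf4 (−3.85 ± 0.07) and Klf5 (−4.41 ± 0.09) of the pluripotency network fell, as did Klf9 (−3.97 ± 0.10) and Klf15 (−3.19 ± 0.19), both known as glucocorticoid targets. Klf2 did not pass with its brightest probe (−0.66 ± 0.07), while its other probe read −5.06. Sox factors rose in 9 of 17 cases and fell in 4 (2 without day 9 replicate 3), from Sox2 (−4.26 ± 0.19) to Sox11, a factor of many embryonic mesenchymes, which was at least 127-fold higher and whose other probes read 3.43 to 7.63. Among nuclear receptors Esrrb (−6.36 ± 0.13) and Nr0b1 (−5.93 ± 0.21) of stem cells fell, and Nr2f2 (5.57 ± 0.06), a factor of veins and atria, and Rarb (6.65 ± 0.06), a retinoic acid receptor, rose. Of 321 numbered Zfp genes 57 rose and 72 fell, shares of 17.8% and 22.4% that lie close to the 20.0% and 21.0% of all genes. The family of Jun, Fos, Atf and Egr factors, which also counts Maf, rose in 8 of 23 cases and fell in 3. With normexp background correction 5 rose and 2 fell. Jun rose by 4.84 ± 0.05 and Egr1 by 4.78 ± 0.16, Maf was at least 100.3-fold higher, and Atf4 changed by −1.21 ± 0.10. Spic, a factor of splenic macrophages, read 3.92, 3.91, 3.96 and 3.73 on the mESC arrays and −5.68, −5.90, −5.28 and −5.75 on the day 9 arrays. The change of −9.53 ± 0.19 was the largest fall among genes with a symbol whose probe was above background in both groups. Normexp correction gave 8 higher and 1 lower of the 17 Sox factors and 29 higher and 47 lower of the 321 Zfp genes.

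Signalling pathways were next compared by role, beginning with LIF. Of 21 genes of the LIF and Stat3 list 12 fell and 2 rose. Stat3 itself read 2.60, 2.48, 2.54 and 2.47 on the mESC arrays and 2.93, 2.84, 2.96 and 3.02 on the day 9 arrays and did not pass the thresholds at 0.42 ± 0.05, while genes that it is known to control fell: Pim1 (−2.89 ± 0.14), Bcl3 (−2.32 ± 0.07) and Socs3 (−1.44 ± 0.09). Pramel7 was at least 27-fold lower. Osmr, the oncostatin M receptor, was at least 10.6-fold higher, but its other probe read 0.44.

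Wnt genes rose in 30 of 50 cases and fell in 10 (median 1.43), and with normexp background correction in 19 and 6. Among the ligands 8 of 15 rose and 3 fell, with Wnt2, a ligand of the heart field, at least 404-fold higher and Wnt10a at least 4.43-fold lower. Among Frizzled receptors 7 of 10 rose and 3 fell, with Fzd1 at 6.55 ± 0.10 and Fzd10 at −3.14 ± 0.11. Antagonists went both ways, with Dkk1 at 5.89 ± 0.15, Dkk2 at least 30.2-fold higher, Sfrp4 at −4.91 ± 0.24 and Notum at −3.31 ± 0.21. In the BMP, TGF-beta and Nodal list 28 of 53 rose and 12 fell. Nodal (−5.08 ± 0.17), its coreceptor Tdgf1 (−4.93 ± 0.23), its inhibitor Lefty2 (−5.16 ± 0.19) and Gdf3 (−6.18 ± 0.16) all fell. Tgfb2, a ligand of heart cushions, read −4.73, −4.84, −5.06 and −4.91 on the mESC arrays and 2.22, 2.47, 2.51 and 2.52 on the day 9 arrays, a change of 7.31 ± 0.08. Bmp4 rose by 5.37 ± 0.09, and the BMP targets Id2 and Id3 by 6.36 ± 0.12 and 6.46 ± 0.13. Inhba, the activin A subunit, was at least 35.3-fold higher.

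Receptors and ligands of vessels, mesenchyme and nerve guidance followed. The PDGF, VEGF and angiopoietin list had 16 of 24 higher and 1 lower. Nrp1, the coreceptor of VEGF and semaphorins, was at least 156-fold higher and Pdgfra rose by 6.87 ± 0.06, whereas Pdgfa, its ligand, changed by −1.90 ± 0.07. The IGF list had 10 of 18 higher, with Igfbp1 at least 229.6-fold, and Igfbp2 was the larger of its 2 falls (−2.69 ± 0.08). Retinoic acid genes rose in 14 of 21 cases: the synthetic enzyme Aldh1a2 by 2.44 ± 0.10, the degrading enzyme Cyp26a1 by 2.83 ± 0.13 and the target Rarres2 by 6.38 ± 0.11. Ephrins and Eph receptors rose in 13 of 18 cases, with Efnb2, the arterial ephrin, at 5.94 ± 0.07 and Epha2 at −2.56 ± 0.04. Semaphorins, plexins, slits and netrins rose in 24 of 43, with Unc5c at least 81.7-fold higher and Sema4f at −4.13 ± 0.08. Hippo pathway and YAP target genes rose in 13 of 24 cases, with Ankrd1, a target that is also a sarcomere protein, at least 381-fold, Amot at 6.41 ± 0.07 and Ccn1 at 2.52 ± 0.11, and Tead4 fell by 1.80 (SE 0.19). Notch and FGF genes had no main direction, at 7 higher and 7 lower of 26, and 11 higher and 8 lower of 28. Dtx1, a Notch regulator, changed by −5.84 ± 0.15, Heyl, a Notch target, was at least 11.5-fold higher, Fgfr2 at least 39.5-fold higher and Etv5, a target of FGF signalling, fell by 3.56 (SE 0.16). In the Hedgehog list 10 of 18 rose, with Shh at least 5.2-fold, Gas1 at 5.19 ± 0.23 and the antagonist Hhip at −3.77 ± 0.24. Of 34 chemokines and receptors 14 rose and 2 fell, and Cxcl12, which guides progenitor cells, was at least 957-fold higher. Normexp correction gave 16 higher and 3 lower of the 43 semaphorins and their kin, 6 higher and 4 lower of the 28 FGF genes, 5 higher and 2 lower of 18 in the Hedgehog list and 4 higher and 1 lower of the 34 chemokines and receptors. Treat gave 10 higher and 5 lower of the 28 FGF genes.

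Matrix genes rose in many families. Of 40 collagen chains 27 rose and 4 fell (median 2.60). Col1a2, of fibrillar collagen I, read −1.50, −1.47, −1.44 and −1.40 on the mESC arrays and 7.06, 6.20, 6.52 and 6.91 on the day 9 arrays, a change of 8.12 ± 0.15 with no overlap and with replicates 2 and 3 lowest at day 9. Col3a1 and Postn, the fibroblast protein periostin, were at least 2559-fold and 2122-fold higher. Basement membrane collagen rose too, with Col4a1 at 4.82 ± 0.07 and Col4a2 at 4.52 ± 0.09. Col6a3 was at least 180.3-fold higher with its brightest probe, below background on all mESC arrays, but its other probe read 0.56. Col5a3 (−2.24 ± 0.18) and Col4a4 (−1.02 ± 0.05) were among those that fell, but Col4a4 was not called without day 9 replicate 2 (−0.99). Crosslinking and assembly enzymes rose in 12 of 23 cases, with Lox at least 8.82-fold and Adamts2, which trims procollagen, at 6.70 ± 0.18. The gene of elastin, Eln, whose peptide motif the coating imitates, rose by 2.20 ± 0.08, and its microfibril partners Fbn1, Fbn2 and Mfap4 by 5.62 ± 0.10, 6.38 ± 0.24 and 5.01 ± 0.13. Matricellular proteins rose in 21 of 32 cases. Spp1, osteopontin, moved against the list at −8.56 ± 0.19 and read 7.0, 7.10, 7.10 and 6.96 on the mESC arrays and −1.57, −1.11, −1.22 and −2.17 on the day 9 arrays. Adamts proteases rose in 11 of 17 cases and 1 fell, with Adamts1 at 7.96 ± 0.10. Laminins were divided, with Lamb1 (3.01 ± 0.07) and Lama4 (3.89 ± 0.13) higher and Lama5 (−1.80 ± 0.11) lower. Glypicans and syndecans rose in 7 of 9 cases, with Gpc3 at 4.02 ± 0.06, while Sdc4 fell by 1.87 (SE 0.12). Normexp correction gave 22 higher and 0 lower of the 40 collagen chains and 19 higher and 1 lower of the 32 matricellular proteins.

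Classical cadherins rose in 11 of 18 cases and fell in 3, a count that includes Cdh11, whose probes disagree. With the mean over probes 11 rose and 2 fell. Cdh1, the epithelial cadherin of stem cells, read 4.38, 4.44, 4.41 and 4.41 on the mESC arrays and 0.42, 1.38, 0.89 and 0.53 on the day 9 arrays. Cdh2, the cadherin of heart muscle and mesenchyme, read −4.67, −4.33, −4.16 and −4.57 on the mESC arrays and 0.87, 1.06, 1.08 and 1.08 on the day 9 arrays. The groups were apart for both genes and in opposite directions, at −3.61 ± 0.17 and 5.46 ± 0.10. Cdh11 could not be settled, because its brightest probe read −1.86 ± 0.05 and its other probes 10.60 to 11.14. The mean over its probes was 6.63. Protocadherins rose in 27 of 36 cases and none fell (median 2.46), with 15 of 18 in the Pcdhb cluster. No array of mESC was above background for 14 of these 18, and with normexp background correction 13 of all protocadherins rose. Pcdh7 and Pcdh17 were at least 69.7-fold and 47.5-fold higher, and Pcdh18 rose by 6.18 ± 0.18. Genes of the mesenchymal switch rose in 14 of 19 cases, with Twist2 at least 159-fold, Snai2 at 4.87 ± 0.16 and Vim, vimentin, at 2.88 ± 0.06. Epithelial junction genes nonetheless divided evenly, 11 higher and 11 lower of 35. Claudin 4 (Cldn4, −3.97 ± 0.29) fell, and Cldn6 (3.49 ± 0.18), the desmosome genes Dsc2 (4.72 ± 0.13) and Dsp (2.93 ± 0.10) and the simple keratins Krt8 (3.92 ± 0.05) and Krt18 (3.58 ± 0.08) rose, and Epcam did not pass at 0.03 ± 0.17. The connexin Gjb5 (−4.86 ± 0.10) fell and the heart connexins Gja1 (2.46 ± 0.07) and Gja5 (1.89 ± 0.16) rose. Of the integrins Itga4 was at least 40.6-fold higher and Itgb7 changed by −5.24 ± 0.17. Normexp correction gave 6 higher and 3 lower of the 18 classical cadherins.

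Smooth muscle contractile genes rose in 14 of 18 cases and fell in 2 (median 2.78). Myl9, the regulatory light chain, read −2.25, −2.41, −2.27 and −2.33 on the mESC arrays and 6.08, 6.56, 6.39 and 6.13 on the day 9 arrays, a change of 8.61 ± 0.10 with no overlap. Cnn1 (6.03 ± 0.17) and Tagln (6.34 ± 0.08) of stress fibres rose, and Synpo2 was at least 27.2-fold higher. Acta2 rose by 1.99 ± 0.06 with its brightest probe, and its other probes read 3.17 to 11.01, so the size is uncertain. Ckb, brain creatine kinase, changed by −3.03 ± 0.19. In the family of actins and tropomyosins 7 of 10 rose and none fell, while the cytoplasmic actins Actb (−0.35 ± 0.07) and Actg1 (0.90 ± 0.04) did not pass.

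Markers of other cell types rose beside those of muscle, and their part in the results above was not tested. Fibroblast genes rose in 14 of 20 cases and fell in 2 (1 without day 9 replicate 2), with Dpt and Meox2 below background on all arrays. Genes of visceral endoderm and liver rose in 21 of 28 cases and fell in 1, with summed levels of 7.35 to 7.91 in mESC and 116 to 173 at day 9. Afp, alpha-fetoprotein, was at least 1607-fold, Fgb, a fibrinogen chain, at least 224-fold and Apoa1 at least 82.8-fold higher, while Ahsg changed by −4.60 ± 0.10. Apoh and Fga were below background on all mESC and day 9 arrays, although Fga is counted among the genes that rose. Epicardium and mesothelium genes rose in 10 of 12 cases, with sums of 6.36 to 7.22 in mESC and 16.1 to 24.9 at day 9. Wt1, Tcf21 and Bnc1 were at least 62.1-fold, 76.2-fold and 111-fold higher, and Msln, mesothelin, went down, at −6.63 ± 0.13. Of 22 endothelial genes 16 rose and 3 fell. Cdh5, the cadherin of endothelium, and Emcn were at least 45.3-fold and 70.0-fold higher, but Vwf (−4.91 ± 0.09) and Pecam1 (−3.59 ± 0.10) were lower. The sums of 20.7 to 22.4 in mESC and 22.6 to 28.7 at day 9 were close. The list median was 2.35, and 14 of the 22 genes were above background on any mESC array against 22 at day 9. The close sums thus do not describe the list as a whole. Embryonic globin Hbb-bh1 was at least 101-fold higher and Hba-x rose by 6.33 ± 0.79. Of 15 erythroid and blood genes 7 rose and 3 fell. The list summed to 1.02 to 1.12 in mESC and 3.45 to 9.61 at day 9. Spi1, counted among the falls, was below background on all mESC and day 9 arrays. Normexp correction gave 4 higher and 0 lower of the 15 erythroid and blood genes.

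Of the macrophage list 3 of 21 rose and 2 fell, and 8 genes (Adgre1, Fcgr1, C1qa, C1qc, Cx3cr1, Lyz2, Aif1 and Itgam) were below background on all mESC and day 9 arrays. Its sum was 3.8 to 4.33 in mESC and 0.906 to 1.25 at day 9. The median change of the list was 0.01, so the lower sum does not describe the list as a whole. Gut and foregut genes rose in 10 of 16 cases, with Cdx2 at least 45.7-fold and Tff3, a mucus peptide, at least 37.9-fold higher, but their sum was lower at day 9 (9.04 to 12.4) than in mESC (15.3 to 17.4), where Sox2 is a member. Neural progenitor genes had 7 higher and 5 lower of 21, neurons 7 and 6 of 21 (5 and 6 with median scaling), and neural crest and glia 6 and 5 of 16. Their sums were 19.6 to 21.3, 12.8 to 13.5 and 8.06 to 8.56 in mESC and 13.8 to 17.1, 19.6 to 25.2 and 14.5 to 16.2 at day 9. Fabp7, of radial glia, was at least 48-fold higher and Nefh, a neurofilament, changed by −5.46 ± 0.07. Cartilage and bone genes had 8 higher and 7 lower of 18, with sums of 156 to 171 in mESC and 9.31 to 10.4 at day 9. Spp1 and Alpl are members and made up most of the mESC sum, so its fall does not describe the list as a whole. Sox9 rose by 4.29 ± 0.17 while Alpl fell by 4.90 (SE 0.13). The trophoblast list rose in 9 of 18 cases and summed to 54.6 to 56.4 in mESC and 187 to 207 at day 9, where Krt8, Krt18 and Hand1 are members, and Ctsq was below background on all arrays. Plac1 was at least 76.2-fold higher and Eomes changed by −3.80 ± 0.19. Keratinocyte genes had 4 higher and 4 lower of 15, and kidney genes 6 and 2 of 12, with Krt17 at −4.31 ± 0.06. Their sums were 32.9 to 34.2 and 2.31 to 2.5 in mESC and 22.1 to 23.0 and 4.25 to 5.56 at day 9. Primitive streak genes rose in 7 of 15 cases and fell in 4, with sums of 13.7 to 16.3 and 17.9 to 21.3. Of these, the streak genes T (−0.29 ± 0.07) and Mesp1 (−0.44 ± 0.15) did not pass at day 9. Normexp correction gave 0 higher and 2 lower of the 21 macrophage genes, 6 higher and 1 lower of the 16 gut and foregut genes, 2 higher and 5 lower of the 21 neuron genes, 3 higher and 3 lower of the 16 neural crest and glia genes, 6 higher and 4 lower of the 18 cartilage and bone genes, 2 higher and 2 lower of the 12 kidney genes and 4 higher and 3 lower of the 15 primitive streak genes.

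**Figure D5:**
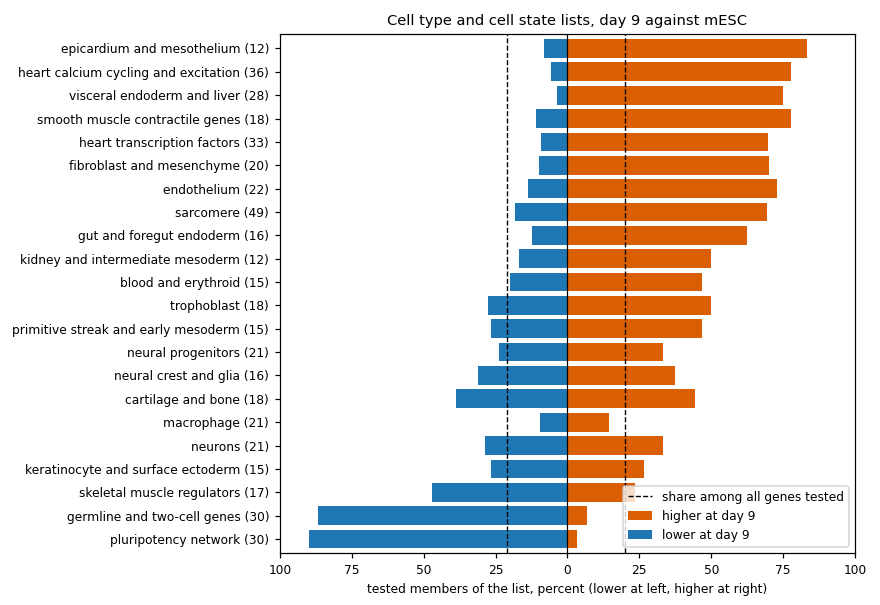
Share of the tested members of each cell type or cell state list that were higher (right, orange) or lower (left, blue) at day 9, in percent, with the number of tested members in parentheses and dashed lines at the shares among all genes, 20.0% and 21.0%. Lists of epicardium, heart, smooth muscle, endothelium, visceral endoderm and fibroblasts reach furthest right, and the pluripotency and germline lists furthest left.

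Membrane carriers and channels moved in both directions. Of 276 Slc carriers 58 rose and 87 fell. Slc11a1, a metal carrier of phagocytes, changed by −6.53 ± 0.08 and Slc30a2, a zinc exporter, by −5.56 ± 0.36, and Slc24a3, a sodium-calcium exchanger, was at least 40.3-fold higher. ABC transporters fell in 15 of 39 cases and rose in 11, and the drug pumps Abcb1a and Abcb1b changed by −5.10 ± 0.53 and −3.63 ± 0.13. Of 7 aquaporins 4 fell, with Aqp3 at −6.93 ± 0.12, and Aqp1, of endothelium and red cells, was at least 13.6-fold higher. Potassium channels had 21 higher and 17 lower of 60, with Kcna5, of atrial muscle, at least 18-fold and Kcnk3 at 5.08 ± 0.12. Sodium and calcium channels had 9 and 10 of 28, with Cacna1d, of pacemaker cells, at least 8.04-fold higher. Toll-like receptors and Nlr proteins fell in 10 of 19 cases, and Nlrp4f and Nlrp14, both known from oocytes, were at least 25-fold and 10.1-fold lower. MHC and antigen presentation genes had 10 lower and 3 higher of 27, with Cd74 at −2.25 ± 0.08 and B2m at 1.10 ± 0.07 (its other probe at 0.96). Normexp correction gave 28 higher and 44 lower of the 276 Slc carriers, 2 higher and 12 lower of the 39 ABC transporters, 10 higher and 6 lower of the 60 potassium channels, 4 higher and 3 lower of the 28 sodium and calcium channels and 1 higher and 6 lower of the 19 Toll-like receptors and Nlr proteins. Treat gave 9 higher and 6 lower of the 28 sodium and calcium channels.

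Odorant receptors are genes that neither state is known to use, but only those whose probes passed the background filter were counted. Of 887 on the array 208 were tested, of which 12 rose (5.8%) and 13 fell (6.2%; 8 genes without day 9 replicate 3), and with normexp background correction 1 rose and 1 fell. Treat gave 7 higher and 4 lower of the 208. Tubulins had 1 higher and 2 lower of 21, and the higher was Tuba1a (2.36 ± 0.05).

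The largest changes of all, among genes with a symbol whose probe was above background in both groups, were led on the rising side by Igf2 (10.22 ± 0.06) and Nnat (9.43 ± 0.14). Mfap2 (9.24 ± 0.13), a microfibril protein, Ccdc80 (9.08 ± 0.16), a secreted protein of mesenchyme, and Ednra (8.41 ± 0.18), the endothelin receptor of smooth muscle and heart crest, also belong here. Col4a6 was at least 212-fold higher with its brightest probe, below background on all mESC arrays, and its other probes read 0.34 to 5.49. The falling side was led by Spic (−9.53 ± 0.19) and Spp1 (−8.56 ± 0.19), followed by Khdc3 (−8.35 ± 0.23) and the germ cell gene Fkbp6 (−8.21 ± 0.13). Gtsf1 (−8.17 ± 0.19), of the piRNA pathway, and Ooep (−7.72 ± 0.24), an oocyte protein, lay in the same range. All called genes named here had an adjusted p of 8.27e-04 or less in limma.

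Some of the genes given with a fitted size were above background on a part of the arrays of their dimmer group. In mESC this was 1 array for Cav3, Meis1, Hba-x and Ednra, 2 arrays for Myl3, Isg15, Cox8b, Dkk1, Pcdh18, Dsc2 and Ccdc80 and 3 arrays for Hand1 and Mfap2. At day 9 it was 1 array for Slc27a2, Spic, Eomes and Abcb1a, 2 arrays for Myh3, Kcnip2, Hoxc13 and Sfrp4 and 3 arrays for Khdc3, Gsta1, Oas1a, Rpl3l, Nefh and Slc11a1. Besides the genes with their other probes given above, other probes were called in the same direction, yet with a fitted size more than 2 log2 units away, for Myocd, Jph2, Rarb, Maf, Pdgfra, Fgfr2, Cxcl12, Col3a1, Adamts2, Pcdh7, Pcdh17, Itga4, Tagln, Synpo2, Cdh5, Mfap2 and Ednra. With normexp background correction the fitted change of Ascl2 (−0.56), Casp12 (0.50), Col4a4 (−0.91), Col5a3 (−0.69), Cox7b2 (−0.65), Cox8b (0.66), Cox8c (−0.63), Derl3 (0.91), Dnajb9 (0.97), Eln (0.86), Gja5 (0.44), Hoxc12 (−1.02), Ifih1 (0.53), Isg15 (0.55), Kcnip2 (−0.75), Mesp2 (−0.85), Neb (−0.77), Shh (0.75), Tfr2 (−0.73) and Wnt10a (−0.66) no longer passed. Under median scaling this held for B2m (0.97) and Igf2r (0.94), and under quantile normalization for Col4a4 (−0.97) and Vbp1 (−0.84). With probes above background on all 8 arrays it held for Col4a6 (0.34) and Slc8a1 (0.57). There 228 of the 348 named genes were unchanged, and the rest were not tested. Under treat 10 named genes no longer passed, and no gene of the unfolded protein response list was called.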

How the data were processed

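The deposited files are the scanner output of 12 one-colour Agilent arrays, 4 per group, and a value table that held the same processed signals, with 0 differences. Per the file headers, Feature Extraction 12.0.3.1 turned spot brightness into a processed signal, an intensity that is background-subtracted and not normalized between arrays. Per the submitters' processing notes the tool was Agilent Feature Extraction 12. Deposited flags mark spots that are well above background, saturated or uneven.

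From these, log2 intensity minus each array's 75th percentile over gene spots was computed, outlier spots and controls were left out, and spots of a probe were averaged. No spot was saturated. A probe was tested if well above background on at least 3 of 4 arrays of any group. Genes were named through RefSeq accessions (GRCm38.p6): 28223 of 41174 probes were named and 12951 were not. The brightest tested probe stood for a gene. limma 3.58.1 in R 4.3.3 fitted the means of the 3 groups over 12 arrays, with empirical Bayes variances and Benjamini-Hochberg adjustment over 20875 genes. A call needs an adjusted p under 0.05, 2-sided, and a log2 change of at least 1. The same steps were checked on simulated data.

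Replicate numbers are positions on a slide. Deviations of equal-numbered mESC and day 9 arrays correlated at −0.0154 to 0.0231, so the numbers were not taken as pairs. The comparison, members and lists were chosen with earlier results of these data known. Eligible to be named were, from a list, at most 4 called members each way by size of change, 12 each way over all genes, the 2 brightest of a list without calls, and every member of a list of at most 12. Of 348 genes named, 50 fell outside this and were chosen after their values were seen. Of RefSeq's promoter windows the 250 bases before the start were searched on both strands. The day 14 arrays entered only the variance and the filter. Alternatives were background correction by normexp (offset 50), quantile and median scaling, other filters, the mean over probes, 8 arrays only, other variance models, a replicate block, and leaving out each array.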

Additional observations from a re-analysis of the deposited data

Results flagged for a closer look

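In 35 of 696 groups of 4 arrays, 1 array of a named gene stood apart from the other 3 by Dixon's criterion at 95%. That is 5.0%, and chance alone marks about 1 in 20 groups. The values are log2 signals relative to the 75th percentile. High on mESC replicate 1 were Derl3 (−0.91) and Hspb3 (−3.93). High on mESC replicate 2 were Bnc1 (−6.06), Fga (−6.69) and Slc24a3 (−6.58). High on mESC replicate 3 were Cbs (−0.09), Eno3 (1.30) and Fkbp6 (3.29). High on mESC replicate 4 were Bid (2.09), Cav3 (−5.09), Ccn1 (−0.10), Chek2 (0.14) and Hba-x (−4.72). Low on mESC replicate 1 was Tdh (7.05). Low on mESC replicate 3 was Neb (−3.50). Low on mESC replicate 4 were Apoa1 (−7.11), Oas1a (1.49), Sdc4 (1.80), Selenop (−1.80) and Slc30a2 (1.97). High on day 9 replicate 1 were Klf4 (2.51) and Mybpc2 (−7.45). High on day 9 replicate 2 were Aars (4.82), Ccn1 (2.71) and Lin28b (0.42). High on day 9 replicate 3 was Kcnip2 (−5.06). High on day 9 replicate 4 were Mgst1 (1.19) and Pcdh7 (0.87). Low on day 9 replicate 1 were Cdh2 (0.87), Cxcl12 (4.41), Hmgcs1 (5.39), Hoxc13 (−7.49) and Tgfb2 (2.22). Low on day 9 replicate 2 was Mesp1 (−4.96). Low on day 9 replicate 3 was Chd5 (−4.59). The cause of these values was not tested.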

How the results depend on the processing

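The count of called genes was 8565. With normexp background correction it was 4760 (2151 higher and 2609 lower), and with probes above background on all 8 arrays 5550 of 16051 genes, with 2352 higher. The total, higher and lower counts otherwise stayed within 1.5 times their value under quantile normalization, median scaling, no filter, the mean over probes, 8 arrays only, an intensity trend with robust variance, treat and the replicate block (4177 higher and 4387 lower). Leaving out 1 array gave totals of 8544 to 8631, with 4165 to 4212 higher and 4365 to 4429 lower. Median scaling moved the median of all genes by −0.13, to −0.29, and the share of called genes that were higher was 48.8%, against 42.4% to 50.1% over the alternatives. Of 288 counts of members, 101 moved by more than 1.5 times with normexp background correction, 95 with probes above background on all 8 arrays, 32 with treat, 17 with quantile normalization, 9 with the mean over probes and 8 with median scaling. Cdh11 read 6.63 with the mean over probes, opposite to its brightest probe, and Fga, below background in both groups, read −0.03 with normexp background correction; the cause was not tested beyond the disagreement of the Cdh11 probes. Adgre1, also below background in both, read 1.05 without mESC replicate 4. The replicate block changed no call of a named gene. Signal over background limits the fitted sizes, since 59.5% to 65.54% of probes were well above it on an array.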
